A study of Rattus norvegicus with 6 samples.

Results

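Serine tRNAs encoded in the nucleus gave 33 of the 615 small RNA fragments listed for rat hippocampus, a part of the brain needed to form memories. They were taken by name, as every listed fragment whose identifier carries Ser and not the prefix for the mitochondrial chromosome, and they fall under the 4 anticodons AGA, CGA, GCT and TGA. The hippocampi came from Sprague-Dawley rats aged 6 to 8 weeks that had received saline (3 libraries) or nicotine, the addictive alkaloid of tobacco (3 libraries), each from a separately numbered rat. Dose, route, duration and sex were not given in the sources used here. Values are CPM, a fragment's reads scaled to a common library total (counts per 1e+06 reads). Library totals, worked out from the CPM values, were 374763, 154414 and 206221 reads in saline rats 1 to 3 and 90828, 122282 and 128694 reads in nicotine rats 1 to 3. These totals are what scales the CPM and need not count every read sequenced. By them all nicotine libraries were less deep than all saline ones, so that effects of depth and of nicotine cannot be told apart. In RNA from whole tissue, fewer cells of a type and less RNA per cell cannot be told apart either. The files hold tRNA fragments only, so the tissue label could not be checked against marker genes.

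Serine tRNAs carry a long variable arm between the anticodon stem and the T arm, a feature they share among nuclear tRNAs with leucine and selenocysteine tRNAs. Seryl-tRNA synthetase, the enzyme that loads serine, reads this arm rather than the anticodon, so that 1 enzyme serves anticodons of unrelated sequence. Ser-AGA, whose first anticodon base is edited to inosine, reads most UCN codons, Ser-CGA and Ser-TGA read codons of the same box, and Ser-GCT reads AGC and AGU. Fragments of tRNAs arise by cuts at a few places. A cut in the D loop or behind the D stem leaves a short 5' fragment, cleavage around the anticodon leaves a long 5' fragment, and a cut in the T loop leaves a short 3' fragment with the CCA tail that is added to every mature tRNA. A trailer is the stretch behind the mature 3' end, which the nuclease ELAC2 removes from the precursor. In human cells a trailer of a Ser-TGA precursor has been tied to cell proliferation.

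The names gave the place of each fragment. All 14 serine 3' fragments, called tRF-3 here, ended at position 85, the last base of the CCA tail. The 17 leucine 3' fragments ended at positions 85 to 87, and the 115 from other nuclear tRNAs ended at positions 74 to 77. A long variable arm makes the mature tRNA longer, which shows in these positions. The 5' fragments (tRF-5) numbered 9, of which 6 had 14 to 16 nt and 3 had 23 to 24 nt. The remaining 10 were trailers (tRF-1) of 14 to 33 nt, written +1:T in the names. The trailers came from Ser-AGA (4), Ser-CGA (3) and Ser-GCT (3), and the 5' fragments from Ser-AGA (5) and Ser-GCT (4). Ser-TGA was represented by 2 fragments, both 3' fragments of 18 nt, and no trailer or 5' fragment of it was listed.

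Long 5' fragments of serine tRNAs were not on the list. The longest serine 5' fragment had 24 nt, and none of 28 nt or more was listed, whereas 15 of the 21 nuclear tRNA names (the initiator methionine tRNA counted apart) had at least 1 of that size. The 6 without were Asn, Ile, Met, Phe, Ser and Trp, and among them Asn, Met and Trp had no 5' fragment at all. Of all listed reads, 5' fragments of 28 to 32 nt took 84.1% ± 3.24 after saline and 77.4% ± 3.11 after nicotine (SD, n = 3 each). Every listed fragment reached more than 20 CPM somewhere (the lowest maximum was 21.3 CPM), so a fragment off the list may still be present at a low level.

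**Figure D1:**
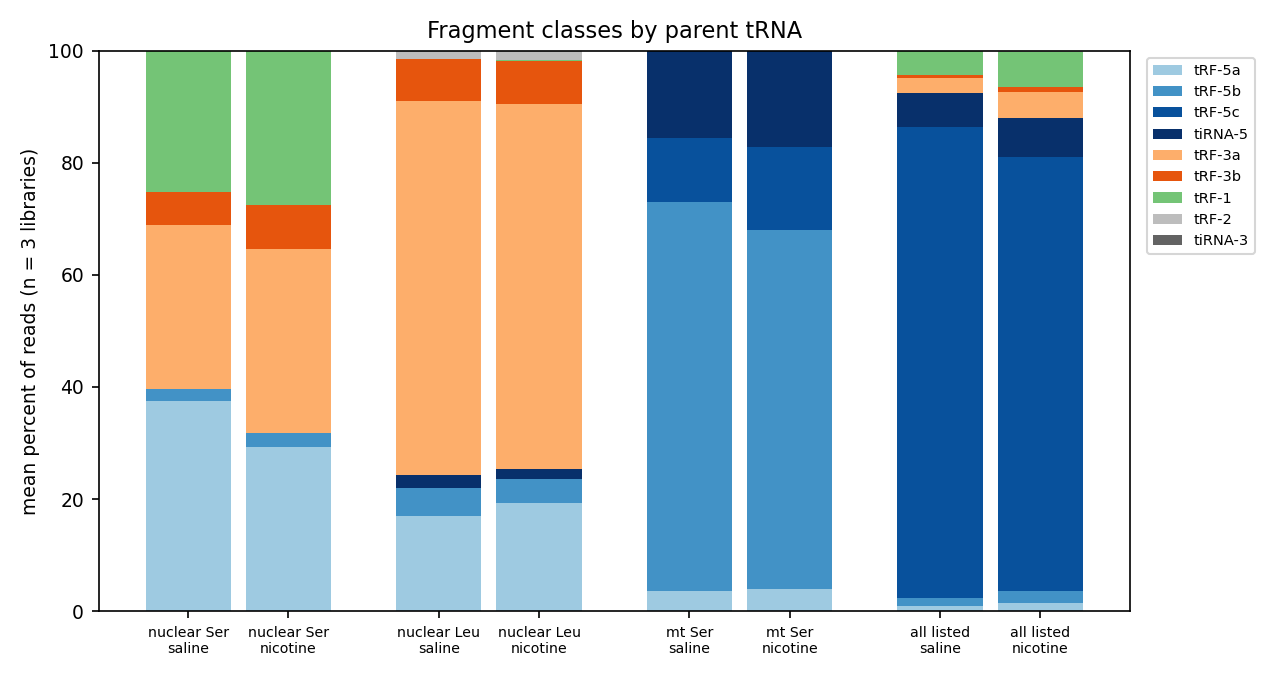
Mean percent of reads (vertical axis, n = 3 libraries per bar) in each fragment class for nuclear Ser, nuclear Leu, mitochondrial (mt) Ser and all listed fragments, saline beside nicotine, where tiRNA-5 and tiRNA-3 are 5' and 3' fragments that the deposited names call tiRNA and tRF-2 are internal fragments. Nuclear Ser bars are divided between short 5' fragments (tRF-5a of 14 to 16 nt and tRF-5b of 22 to 24 nt), 3' fragments (tRF-3a of 17 to 18 nt and tRF-3b of 19 to 22 nt) and trailers (tRF-1), while 5' fragments of 28 to 32 nt (tRF-5c) fill most of the bars for all fragments.

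Serine reads were instead divided among the 3 kinds. In saline libraries 5' fragments took 39.6% ± 11.3 of the serine reads, 3' fragments 35.2% ± 7.55 and trailers 25.2% ± 8.86. In nicotine libraries they took 31.8% ± 5.08, 40.7% ± 8.80 and 27.5% ± 4.18 (SD, n = 3 each). The groups overlapped for all 3 shares. Leucine tRNAs, the other large group with a long variable arm, also lacked 5' fragments of 28 to 32 nt but had 3 of 35 nt. Their reads were mostly 3' fragments, at 74.3% ± 2.61 after saline and 72.7% ± 4.32 after nicotine, and 1 leucine trailer was listed. Mitochondrial serine tRNAs gave 17 fragments, all from the 5' end, of which those of 22 to 24 nt took 69.4% ± 2.26 and 64.1% ± 5.74 of the reads (SD, n = 3 each).

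Nuclear serine fragments were scarce, and no serine fragment or family passed the test for a difference between nicotine and saline. By unadjusted p the family of Ser-GCT 3' fragments came nearest. All 33 nuclear serine fragments together had 1057, 1697 and 2231 CPM in saline rats 1 to 3 and 2125, 2020 and 2665 CPM in nicotine rats 1 to 3. The sums over all 33 rest on 396, 262 and 460 reads after saline and 193, 247 and 343 reads after nicotine. Saline 1 was the lowest and nicotine 3 the highest, and saline 3 lay above nicotine 1 and nicotine 2, so the groups overlapped. The means were 1661 CPM ± 588 and 2270 CPM ± 346 (SD, n = 3 each), a log2 ratio of 0.45 that went to 0.21 without saline 1 and to 0.72 without saline 3. With TMM factors (trimmed mean of M-values, which set each library by its bulk of fragments) this ratio was 0.17, again with overlap. As a share of all listed reads, serine fragments took 0.154%, 0.279% and 0.423% after saline and 0.433%, 0.352% and 0.565% after nicotine. The 95% Wilson interval, which covers counting error only, was 0.139% to 0.169% in saline 1 and 0.509% to 0.628% in nicotine 3. The order of the shares shows the same overlap, since saline 3 lay above nicotine 2.

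By anticodon, Ser-AGA gave most serine reads, 53.4% ± 7.23 after saline and 51.5% ± 0.825 after nicotine (SD, n = 3 each), and its sum was the highest of the 4 in all 6 libraries. Ser-GCT had 389 CPM ± 150 and 516 CPM ± 98.8, and Ser-CGA 278 CPM ± 146 and 461 CPM ± 52.0 (SD, n = 3 each). The order of these 2 was not fixed, since Ser-CGA lay above Ser-GCT in saline 2 and nicotine 1. Ser-TGA was the lowest in all 6 libraries, at 96.6 CPM ± 28.6 and 122 CPM ± 11.0 (SD, n = 3 each). In RefSeq's annotation of the assembly GRCr8, 52 genes carry the symbol for Ser-AGA, 8 that for Ser-GCT, 4 that for Ser-TGA and 3 that for Ser-CGA. The groups overlapped for every anticodon sum.

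**Figure D2:**
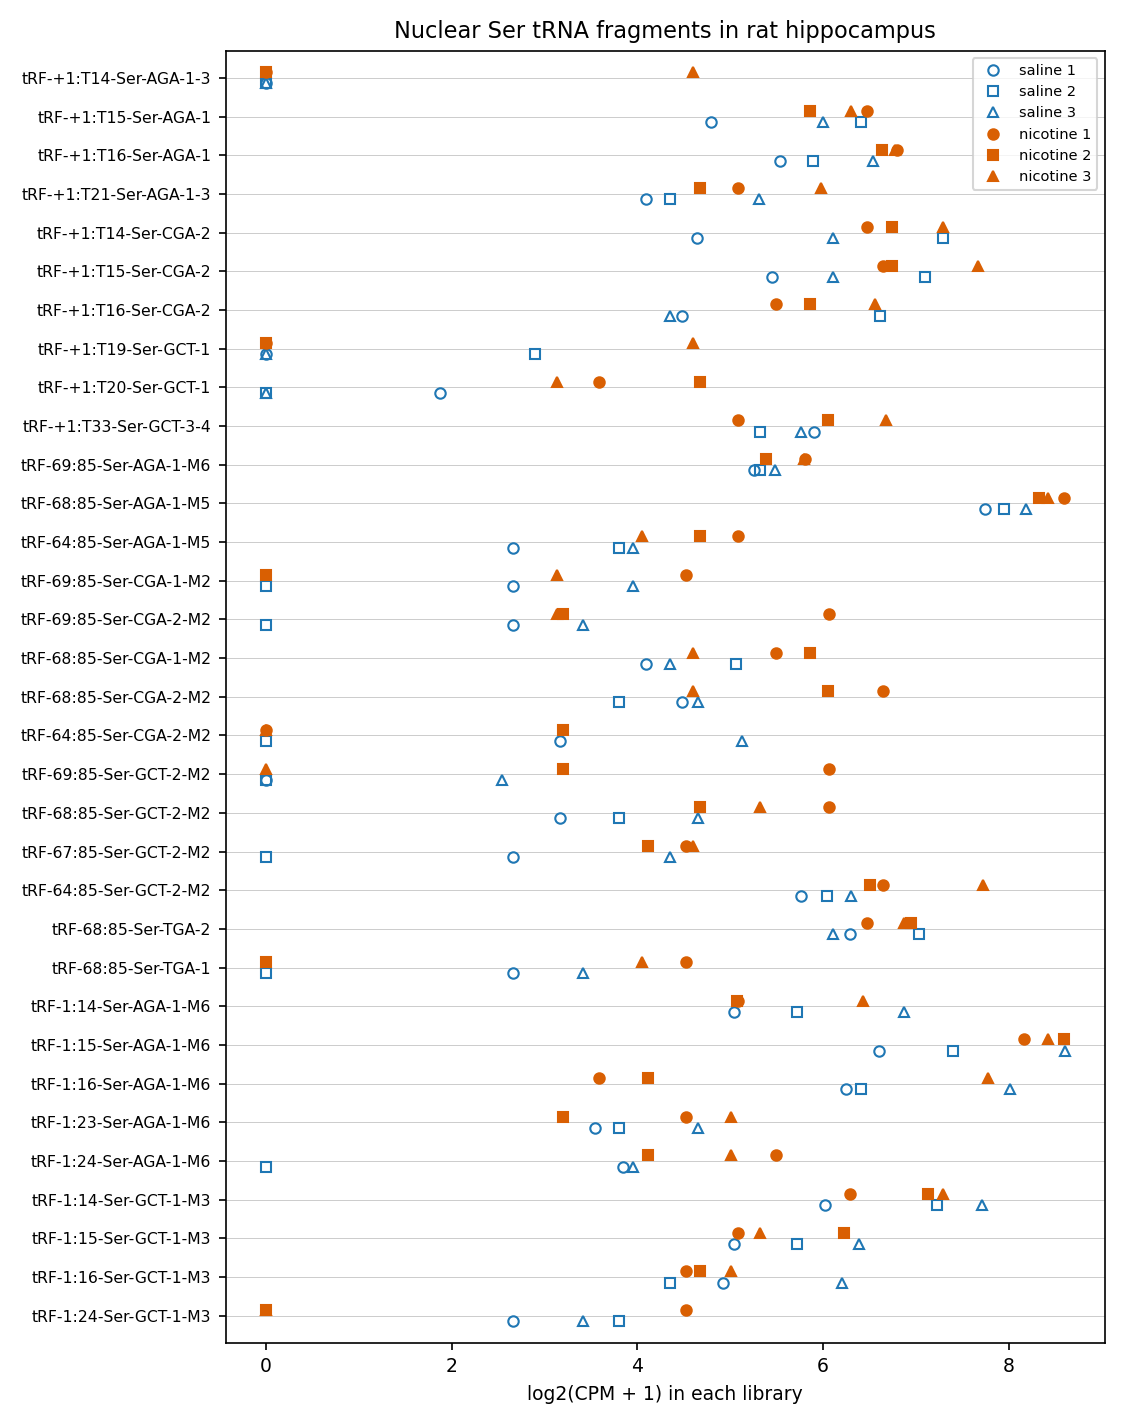
Level of each of the 33 nuclear Ser fragments on a log2(CPM + 1) scale (horizontal axis), open symbols for the 3 saline and filled symbols for the 3 nicotine libraries, with 1 symbol shape per rat number. The 18 nt fragment tRF-68:85-Ser-AGA-1-M5 and the 15 nt fragment tRF-1:15-Ser-AGA-1-M6 lie farthest right, and tRF-1:16-Ser-AGA-1-M6 shows nicotine 1 and nicotine 2 far left of the other 4 libraries.

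Among the 5' fragments, those of Ser-AGA that end in the D loop carried the most reads. The 15 nt form tRF-1:15-Ser-AGA-1-M6 had 96.1, 168 and 388 CPM in saline rats 1 to 3 and 286, 384 and 342 CPM in nicotine rats 1 to 3. Saline 1 and saline 2 were low, while saline 3 was the highest of all, just above nicotine 2, so the groups overlapped. Its log2 fold change on log2(CPM + 1), nicotine over saline, was 0.86 (SE 0.42, limma adjusted p = 0.657), and 0.39 to 1.39 with 1 library left out.

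The form 1 base longer behaved otherwise. The 16 nt fragment tRF-1:16-Ser-AGA-1-M6 had 74.7, 84.2 and 257 CPM after saline (28, 13 and 53 reads) and 11.0, 16.4 and 218 CPM after nicotine (1, 2 and 28 reads). Nicotine 1 and nicotine 2 lay below every saline library, and nicotine 3 lay within the saline range. Over all 6 libraries the log2 fold change was -1.73 (SE 1.13, limma adjusted p = 0.752). Without nicotine 3 it was -3.04 with a limma adjusted p of 0.00576, so this call depends on 1 rat, and without nicotine 1 it was -0.94. On recovered reads the log2 fold change over all 6 libraries was -0.68 to -1.08 by edgeR and DESeq2. Within a library the ratio of the 16 nt to the 15 nt form was 0.778, 0.5 and 0.663 after saline and 0.0385, 0.0426 and 0.636 after nicotine. This ratio is free of the scaling to the library total. The 14 nt form tRF-1:14-Ser-AGA-1-M6 was also lower relative to the 15 nt form in nicotine 1 (0.115) and nicotine 2 (0.0851) than in nicotine 3 (0.250), and the 3 saline libraries had 0.333, 0.308 and 0.300. For this ratio all nicotine libraries lay below all saline libraries. The 14 nt form had 12, 8 and 24 reads after saline and 3, 4 and 11 reads after nicotine. How often such ratios of other names separate the groups was not worked out. The 14 nt form itself overlapped between the groups, with a log2 fold change of -0.35 (SE 0.62).

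The longer 5' fragments of Ser-AGA, of 23 and 24 nt, were near the limit of 1 read. The 24 nt form tRF-1:24-Ser-AGA-1-M6 had 13.3, 0 and 14.5 CPM after saline and 44.0, 16.4 and 31.1 CPM after nicotine, which is 8 reads against 10 reads. The groups did not overlap, as for 12.6% of all tested fragments with nicotine the higher, but the nicotine 2 value of 2 reads is close to the 3 reads of saline 3. Its log2 fold change of 2.27 (SE 1.16) was 1.12 with a pseudocount of 10 CPM and 0.97 without saline 2, the library with no read, and ranged up to 2.95 with another library left out.

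For Ser-GCT the order of the 5' lengths was another one. The 14 nt form tRF-1:14-Ser-GCT-1-M3 led, with 64.04, 149 and 209 CPM after saline and 77.1, 139 and 155 CPM after nicotine. The groups overlapped and the log2 fold change was -0.086 (SE 0.48). In all 6 libraries the 14 nt form exceeded the 15 nt form of Ser-GCT, by a ratio of 1.89 to 4, whereas for Ser-AGA it stayed below it, at a ratio of 0.0851 to 0.333. The 16 nt form tRF-1:16-Ser-GCT-1-M3 had 40.5 CPM ± 28.4 after saline and 25.9 CPM ± 4.68 after nicotine (SD, n = 3 each). Its ratio to the 15 nt form was 0.917, 0.375 and 0.882 after saline and 0.667, 0.333 and 0.800 after nicotine. The dip of nicotine 1 and nicotine 2 that the Ser-AGA pair shows is not seen in these values, which rest on 2 to 17 reads per form and library. The 24 nt form tRF-1:24-Ser-GCT-1-M3 had 2 reads in each saline library and in nicotine 1, and none in the other 2 libraries.

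**Figure D3:**
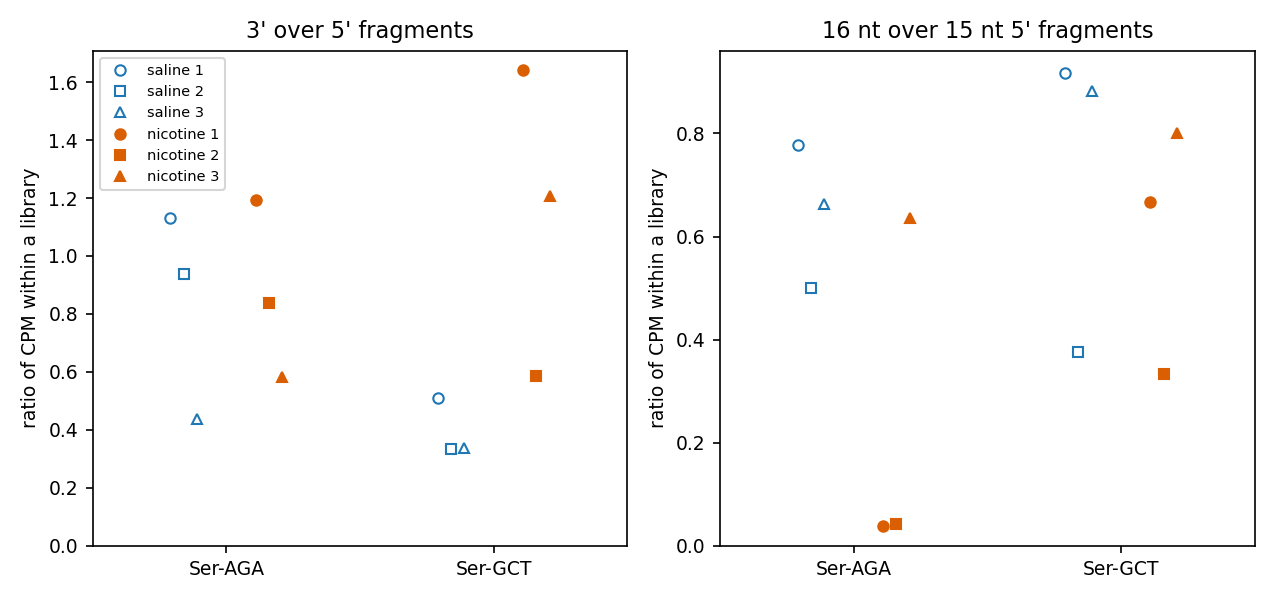
Ratios of CPM within each library (vertical axes, linear from 0) for Ser-AGA and Ser-GCT, open symbols for saline and filled symbols for nicotine libraries. Left, 3' over 5' fragments, where the nicotine values of Ser-GCT lie between 0.586 and 1.64 above all saline values. Right, 16 nt over 15 nt 5' fragments, where nicotine 1 and nicotine 2 of Ser-AGA lie at 0.0385 and 0.0426.

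Summed over each anticodon, neither family of 5' fragments separated the groups. Those of Ser-AGA had 448 CPM ± 308 after saline and 520 CPM ± 165 after nicotine, and those of Ser-GCT 246 CPM ± 122 and 206 CPM ± 44.9 (SD, n = 3 each). The log2 fold changes were 0.38 (SE 0.41) and -0.16 (SE 0.41). For Ser-AGA rat 3 of both groups was the highest, at 800.1 CPM after saline and 707 CPM in nicotine.

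The 3' fragments were led by 1 species. The 18 nt fragment tRF-68:85-Ser-AGA-1-M5 was the most abundant serine fragment, with 213, 246 and 291 CPM after saline (80, 38 and 60 reads) and 385, 319 and 342 CPM after nicotine (35, 39 and 44 reads). All 3 nicotine libraries lay above all 3 saline libraries. The means were 250.2 CPM ± 38.9 and 349 CPM ± 33.7 (SD, n = 3 each). The log2 fold change was 0.48 (SE 0.39, limma adjusted p = 0.788), and 0.16 after rescaling with TMM factors (trimmed mean of M-values, which set each library by its bulk of fragments).

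Ser-GCT differed in length. Its main 3' fragment had 22 nt, tRF-64:85-Ser-GCT-2-M2, and exceeded the 18 nt form in all 6 libraries, by a ratio of 6.67, 5.00 and 3.20 after saline and 1.5, 3.67 and 5.40 after nicotine. For Ser-AGA the same ratio was 0.0250 to 0.0857. The main length of the 3' fragments thus differed between these anticodons in every library of both groups. The 22 nt form of Ser-GCT had 53.4, 64.8 and 77.6 CPM after saline and 99.1, 90.0 and 209.8 CPM after nicotine. The groups did not overlap, although nicotine 1 and nicotine 2 rest on 9 and 11 reads and lie close to saline 3, and nicotine 3 stood highest with 27 reads. The 18 nt form tRF-68:85-Ser-GCT-2-M2 had 8.01, 12.95 and 24.2 CPM after saline and 66.1, 24.5 and 38.9 CPM after nicotine, again without overlap, where saline 3 (5 reads) and nicotine 2 (3 reads) nearly tied. The log2 fold changes of the 22 nt and 18 nt forms were 0.92 (SE 0.51) and 1.48 (SE 0.75), with limma adjusted p of 0.679 and 0.657.

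**Figure D4:**
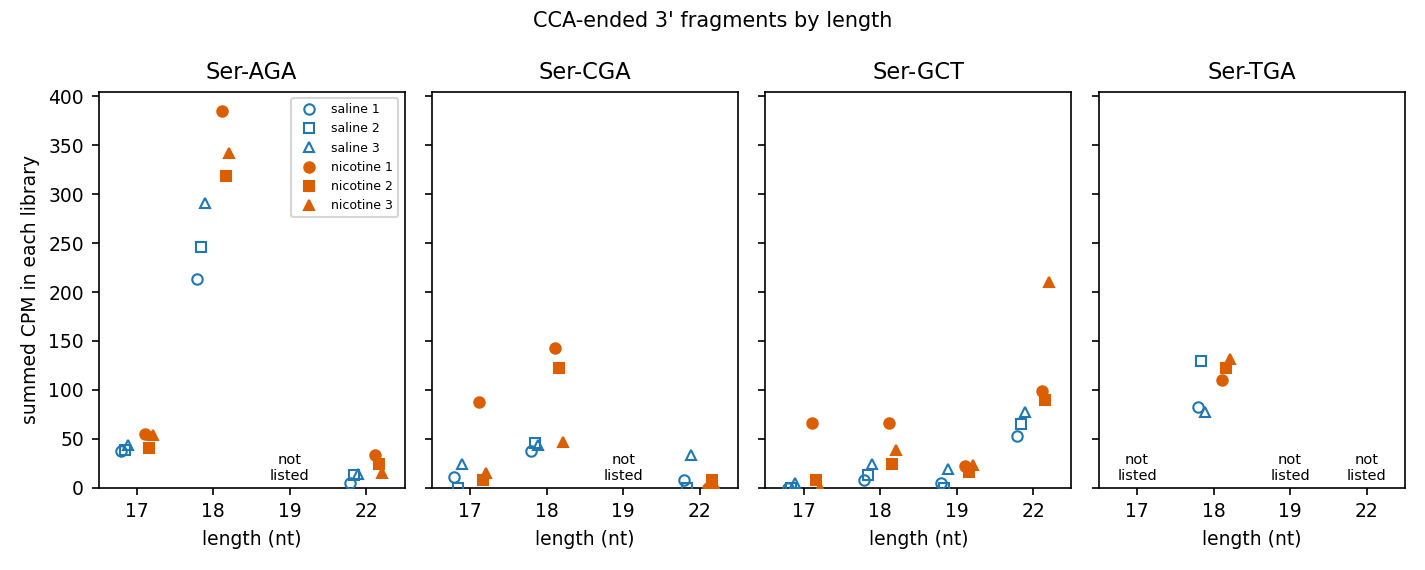
Summed CPM of the CCA-ended 3' fragments (vertical axis) by length in nt (horizontal axis) for each anticodon, open symbols for saline and filled symbols for nicotine libraries. Ser-AGA, Ser-CGA and Ser-TGA have their highest values at 18 nt and Ser-GCT at 22 nt in all 6 libraries, with the smallest lead in nicotine 1 (99.1 CPM against 66.1 CPM at 18 nt).

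The sum of the 4 Ser-GCT 3' fragments had the smallest unadjusted p of the 172 families tested, each family being a class and anticodon. It had 66.7, 77.7 and 126 CPM after saline (25, 12 and 26 reads) and 253, 139 and 272 CPM after nicotine (23, 17 and 35 reads). Nicotine 2 was the lowest of its group and lay just above saline 3, and 15.7% of all families were likewise higher after nicotine without overlap. The log2 fold change was 1.28 (SE 0.44, limma adjusted p = 0.542), so it did not pass. It was 0.96 after TMM rescaling, still without overlap, and 1.09 to 1.58 with 1 library left out. The ratio of 3' to 5' fragments of Ser-GCT was 0.510, 0.333 and 0.338 after saline and 1.64, 0.586 and 1.21 after nicotine, without overlap. This ratio does not use the library total, but its numerator is the same family sum, so it is not separate support. Its 5' side had 49, 36 and 77 reads after saline and 14, 29 and 29 reads after nicotine. Outside serine, the share of anticodons that separate in this ratio was not worked out. The same ratio overlapped for Ser-AGA, with 1.13, 0.939 and 0.436 after saline and 1.19, 0.839 and 0.582 after nicotine. Over all nuclear tRNAs other than serine it was 0.0261, 0.0396 and 0.0396 after saline and 0.0869, 0.0479 and 0.0528 after nicotine, so the nicotine libraries were higher there too. Most 5' reads of that set are of 28 to 32 nt, a size not listed for serine. For nuclear leucine tRNAs the ratio was 3.56, 3.81 and 2.91 after saline and 3.91, 3.00 and 2.56 after nicotine, with overlap. As a share of all nuclear 3' fragment reads, Ser-GCT took 0.411%, 0.370% and 0.711% after saline and 0.760%, 0.599% and 1.33% after nicotine. On this scale the groups overlapped, because saline 3 lay above nicotine 2.

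The 3' fragments of Ser-CGA were listed under 2 names, CGA-1-M2 and CGA-2-M2, and had 18 nt as the main length. The higher of them, tRF-68:85-Ser-CGA-2-M2, had 21.3, 12.95 and 24.2 CPM after saline (8, 2 and 5 reads) and 99.1, 65.4 and 23.3 CPM after nicotine (9, 8 and 3 reads). Nicotine 1 and nicotine 2 stood above the rest, and nicotine 3 lay inside the saline range. Its log2 fold change of 1.45 (SE 0.68, limma adjusted p = 0.657) went with the smallest unadjusted p of a serine fragment. The 22 nt form tRF-64:85-Ser-CGA-2-M2 went the other way, with 10 reads in saline, 7 of them in saline 3, and 1 after nicotine (log2 fold change -1.70, SE 1.91). That value was -3.08 without saline 2 and -0.71 with a pseudocount of 10 CPM. All 5 Ser-CGA 3' fragments together had 67.7 CPM ± 30.0 and 144 CPM ± 84.6 (SD, n = 3 each), with overlap and a log2 fold change of 0.97 (SE 0.54).

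Ser-TGA had the smallest log2 fold change of the 4 families of 3' fragments. tRF-68:85-Ser-TGA-2 had 77.4, 129.5 and 67.9 CPM after saline and 88.1, 123 and 117 CPM after nicotine, and saline 2 was the highest. Its log2 fold change was 0.29 (SE 0.49) and turned to -0.029 after TMM rescaling. The family, with tRF-68:85-Ser-TGA-1 at 0 to 2 reads per library, had a log2 fold change of 0.36 (SE 0.43). The Ser-AGA family of 3' fragments stood at 301 CPM ± 46.6 for saline against 423 CPM ± 45.6 for nicotine (SD, n = 3 each), and its groups did not overlap (log2 fold change 0.50, SE 0.32, limma adjusted p = 0.542).

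Summed over the 4 anticodons, the 3' fragments had 462, 550.5 and 655 CPM after saline and 1068, 785 and 878 CPM after nicotine, without overlap. Nicotine 1, the shallowest library, was the highest, as it was in the ratio of 3' to 5' fragments over other nuclear tRNAs. Serine took 2.85%, 2.62% and 3.69% of all nuclear 3' fragment reads after saline and 3.20%, 3.38% and 4.30% after nicotine. These shares overlapped, since saline 3 lay above nicotine 1 and nicotine 2.

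The trailers came in short ladders. From Ser-CGA-2, fragments of 14, 15 and 16 nt that differ by single bases were listed, led by tRF-+1:T15-Ser-CGA-2 with 42.7, 136 and 67.9 CPM after saline (16, 21 and 14 reads) and 99.1, 106 and 202 CPM after nicotine (9, 13 and 26 reads). Saline 1 was the lowest and nicotine 3 the highest, and saline 2 lay above nicotine 1 and nicotine 2. The log2 fold change was 0.80 (SE 0.51). Ser-AGA-1 gave trailers of 15 and 16 nt. tRF-+1:T16-Ser-AGA-1 had 45.4, 58.3 and 92.1 CPM after saline and 110.1, 98.1 and 109 CPM after nicotine, without overlap on 9 to 19 reads per library, and with a log2 fold change of 0.75 (SE 0.52, limma adjusted p = 0.752). After TMM rescaling its groups overlapped. Ser-GCT gave its main trailer from another gene name and at another length, the 33 nt fragment tRF-+1:T33-Ser-GCT-3-4. It had 58.7, 38.9 and 53.3 CPM after saline and 33.0, 65.4 and 101 CPM after nicotine, so nicotine 1 was the lowest and nicotine 3 the highest of all. Its log2 fold change of 0.28 (SE 0.59) turned to -0.040 after TMM rescaling.

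Trailer families had log2 fold changes of 0.67 (SE 0.40) for Ser-AGA, 0.80 (SE 0.47) for Ser-CGA and 0.60 (SE 0.55) for Ser-GCT. The Ser-AGA family had 148 CPM ± 54.3 and 228 CPM ± 46.1, the Ser-CGA family 211 CPM ± 158 and 317 CPM ± 117, and the Ser-GCT family 53.3 CPM ± 8.02 and 88.7 CPM ± 44.0 (saline and nicotine, SD, n = 3 each). The groups overlapped for each. For Ser-CGA saline 2 at 389 CPM lay above nicotine 1 and nicotine 2. The short Ser-GCT trailer tRF-+1:T20-Ser-GCT-1 had 1 read after saline and 5 after nicotine, 1, 3 and 1 in rats 1 to 3. Its fitted log2 fold change of 3.17 (SE 1.76) was 1.12 with a pseudocount of 10 CPM and 3.8 without saline 1.

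**Figure D5:**
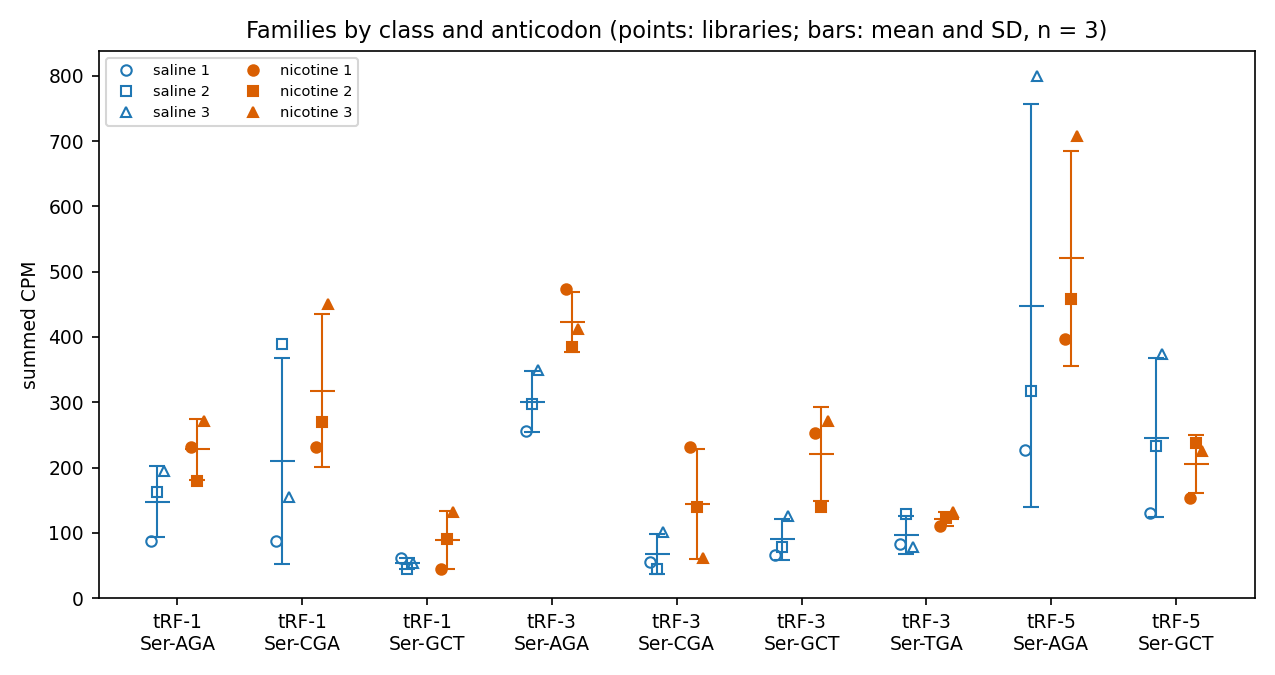
Summed CPM (vertical axis) of the 9 nuclear Ser families by class and anticodon, with a point per library and the mean and SD (n = 3) beside it. The 3' families (tRF-3) of Ser-AGA and Ser-GCT show all nicotine libraries above all saline libraries, and the other 7 families overlap.

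Tested with all listed fragments, no serine fragment and no serine family passed limma at a Benjamini-Hochberg adjusted p of 0.05. The same held for the whole table, where 0 of 586 fragments (0%) and 0 of 172 families (0%) were called. Of the 33 serine fragments 31 could be tested, and the trailers tRF-+1:T14-Ser-AGA-1-3 and tRF-+1:T19-Ser-GCT-1 had a read in too few libraries. At an unadjusted p under 0.05 there were 2 serine fragments, both higher in nicotine, tRF-68:85-Ser-CGA-2-M2 and tRF-1:15-Ser-AGA-1-M6, where 5.12% of all fragments were called higher and 1.88% lower. On recovered reads at the same unadjusted level edgeR with TMM gave 1 serine fragment, higher in nicotine, beside 1.71% of all fragments higher and 3.58% lower. Without a scaling factor edgeR gave 4, all higher, beside 6.31% higher and 1.71% lower, and DESeq2 gave 0, beside 0.341% higher and 2.73% lower. None of these called a serine fragment after adjustment. With TMM rescaling limma gave 0 serine fragments at that level, beside 1.37% of all fragments higher and 4.1% lower. Among families 1 of the 9, the 3' fragments of Ser-GCT, had an unadjusted limma p under 0.05, where 8.14% of all families did so in that direction. After TMM rescaling the same family was again the 1 serine family at that level, where 1.74% of all families were higher and 2.91% lower. On recovered reads edgeR with TMM gave 1 serine family, higher in nicotine, beside 4 of 172 families higher and 5 lower. Without a scaling factor edgeR gave 1, also higher, beside 14 higher and 0 lower. DESeq2 gave 0 serine families, with a lowest unadjusted DESeq2 p of 0.0763, beside 0 higher and 6 lower. Without overlap between the groups there were 7 serine fragments, all higher in nicotine, where 12.6% of all fragments were higher and 1.54% lower without overlap. Of the serine families 2 of 9 were higher without overlap, beside 15.7% of all families higher and 0.581% lower. The 3' families of Ser-AGA and Ser-GCT kept this after TMM rescaling, where 5.81% of all families were higher and 1.74% lower without overlap. After TMM rescaling 2 serine fragments were higher without overlap, tRF-68:85-Ser-AGA-1-M5 and tRF-+1:T20-Ser-GCT-1, beside 6.31% of all fragments higher and 3.92% lower. Of these, tRF-+1:T20-Ser-GCT-1 reached 20 CPM in nicotine 2 alone, with 1 read after saline and 5 after nicotine. In saline 1 and nicotine 1 it had 1 read each, worth 2.67 and 11.0 CPM, so these values differ by the library total alone. Saline 2 and saline 3 had 0 reads, and the cause of the separation was not tested.

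The signs of the fold changes divided by class. Of the tested serine fragments 24 had a higher and 7 a lower value in nicotine, beside 64.5% of all fragments higher and 35.5% lower. Among them were 13 of 14 3' fragments, 8 of 8 trailers and 3 of 9 5' fragments. The same classes over the whole table had 132 of 159, 76 of 112 and 139 of 256 higher. The median log2 fold change was 0.75 over the serine fragments and 0.28 over all fragments. The median over all fragments moved to -0.018 with TMM factors, and the serine median to 0.43. Then 11 of 14 serine 3' fragments, 7 of 8 trailers and 2 of 9 5' fragments were higher, with 49% of all fragments higher and 51% lower. The same classes over the whole table then had 101 of 159, 63 of 112 and 102 of 256 higher. Of the 9 serine families 8 were higher and 1 lower, before and after TMM rescaling, beside 75% and 25% of all families before it and 58.7% and 41.3% after it. Members share precursors, and those that differ by 1 base share most of their sequence, so these counts are not independent. For 9 serine fragments, tested or not, 20 CPM was reached in a single library, for 5 of them nicotine 1. Over all listed fragments these numbers were 151 and 87. Fragments listed through nicotine 1 alone have their highest value in nicotine, and the part of this in the signs was not tested.

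The value of 1 read differed between libraries, and not every member had a read in each. A read was worth 2.67 CPM in saline 1 and 11.0 CPM in nicotine 1, and 22 of the 33 serine fragments had a read in every library. Of the serine fragments 30, 24 and 30 had a read in saline rats 1 to 3, and 30, 28 and 30 in nicotine rats 1 to 3. Expected at the smallest read total, the numbers were 23.4, 22.6 and 27.5 after saline and 30, 26.7 and 28.8 after nicotine, and saline 3 lay above nicotine 2. For 9 serine fragments 20 CPM was reached in a single library, which was nicotine 1 for 5 of them and nicotine 3 for 2. It was nicotine 2 for tRF-+1:T20-Ser-GCT-1 and saline 3 for tRF-64:85-Ser-CGA-2-M2. Of all 615 listed fragments 151 reached 20 CPM in a single library, which was nicotine 1 for 87 and nicotine 3 for 27. In nicotine 1 the value of 20 CPM takes 2 reads, and the part of this in the members listed was not tested. The tRNAs of an anticodon are near-identical copies, so how reads were divided between names such as CGA-1 and CGA-2 is uncertain.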

How the data were processed

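Total RNA was ligated to small RNA adapters, reverse transcribed, amplified and size selected on a gel, with sequencing on an Illumina NextSeq instrument, as the labels' protocols state. FastQC, cutadapt and Bowtie are named without versions in the submitters' processing notes. For genome build, tRNA annotation and the M suffix in fragment names, the sources used here give nothing. The deposited CPM values of 615 fragments per library are the authors'; 2 of the 6 files name no unit, and their values fitted CPM. Every value (100%) was a whole multiple of 1 read within 0.001 reads, which gave reads and library totals. The listed reads were 47.1% to 68.8% of these totals.

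Members, lists and tests were chosen with earlier results of these data known. Classes were assigned from the position and length in each name. limma 3.58.1 (trend, robust, R 4.3.3) was fitted to log2(CPM + 1) of all fragments that had 1 CPM or more in 3 or more libraries, and to sums over class and anticodon, two-sided, with Benjamini-Hochberg adjustment. edgeR 4.0.16 (quasi-likelihood) and DESeq2 1.42.0 on recovered reads, other pseudocounts (0.5 and 10 CPM), filters, TMM rescaling, a replicate block and leaving out each library were alternatives. Sums over all members are given without a p. Named fragments were the highest of each class and anticodon, the 5 highest of all, and the 5 higher and 5 lower with the smallest unadjusted p; tRF-68:85-Ser-TGA-1 and the 2 fragments that were not tested were named besides, after their values were seen. Libraries of 1 group differed beyond sampling noise (chi-square per degree of freedom 11.9 to 24.4). The limma fits were also run on simulated data with large planted changes, which does not show how well smaller ones would be found. Fragment sequences were not used here.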

Additional observations from a re-analysis of the deposited data

How the results depend on the processing

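No serine family passed under any of the alternatives, and among serine fragments tRF-1:16-Ser-AGA-1-M6 without nicotine 3 was the single one that did. Over all fragments the number passing went from 0 to 1 with the replicate block and to between 0 and 5 with a library left out, and over all families to between 0 and 2. The replicate block changed no serine call. Same-numbered rats deviated together with correlations of 0.0867, 0.109 and 0.161 over 586 fragments. Each library correlated best with its own number, a weak hint from the data and not from the design. How often 3 libraries per group would give this without any pairing was not worked out. Of the serine values 15 reversed. With TMM rescaling tRF-+1:T33-Ser-GCT-3-4 went to -0.0400 and tRF-68:85-Ser-TGA-2 to -0.0287. On reads, tRF-68:85-Ser-TGA-2 went to -0.0223 in edgeR with TMM and -0.0290 in DESeq2, the 3' family of Ser-TGA to -0.0255 in DESeq2, and the 5' family of Ser-AGA to -0.0280 in edgeR with TMM and -0.13 in DESeq2. With a library left out the log2 fold change ran from -0.0890 to 0.70 for tRF-+1:T33-Ser-GCT-3-4, from -0.80 to 0.15 for tRF-1:14-Ser-AGA-1-M6, from -0.57 to 0.28 for tRF-1:14-Ser-GCT-1-M3, from -0.83 to 0.096 for tRF-1:16-Ser-GCT-1-M3 and from -0.54 to 0.21 for the 5' family of Ser-GCT. The cause was not tested. Of the others, 367 kept their sign and their side of the threshold. At the smallest read total, an alternative chosen after seeing the data, the mean number of serine fragments with a read differed by 3.99 instead of 1.33, nicotine over saline. The difference in the share of listed reads, 0.165 percentage points, went to 0.364 with Gly fragments out of the denominator, which removes most listed reads from it.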

Other observations

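The low 16 nt form of Ser-AGA in nicotine 1 and nicotine 2 was compared with tRNAs for other amino acids after its values were seen. Both lengths were listed for 8 nuclear names other than serine. Their median ratio of 16 nt to 15 nt was 1.61, 1.26 and 1.08 in saline rats 1 to 3 and 1.05, 0.5 and 1.02 in nicotine rats 1 to 3, and in saline 3 it leaves out Leu-TAA-1, which had no 15 nt read there. For Val-AAC-1-M5 the ratio was 0.0227, 0.0152 and 0.0407 in saline and 0.0103, 0.00410 and 0.0200 in nicotine libraries. For Lys-TTT-1 it was 0.296, 0.273 and 0.278 in saline and 1.00, 0.6 and 0.5 in nicotine libraries, all higher. The 16 nt and 15 nt forms had 31 and 1551 reads in all for Val-AAC-1-M5, and 23 and 67 for Lys-TTT-1. These names were picked for going opposite ways, and the difference between names was not tested.

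The 17 nt 3' fragments were high in nicotine 1 alone for some serine tRNAs. tRF-69:85-Ser-CGA-2-M2 and tRF-69:85-Ser-GCT-2-M2 each had 6 reads there (66.1 CPM), against at most 2 reads and 1 read in any other library, while tRF-69:85-Ser-AGA-1-M6 had 55.0 CPM in nicotine 1 and 37.4 to 54.4 CPM in the others. These fragments were picked after their values were seen.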
